A study of Mus musculus with 71 samples.

Results

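The hippocampal pS6 translatome of mice fed a high-fat sucrose diet was compared with that of mice fed normal chow, in animals taken from their home cage during the day. The groups were HFS ad lib, HC zt3 (6 mice) and NC ad lib, HC zt3 (6 mice), 12 of the 71 mice of the series. All were male C57BL/6J mice with no transgene, 3 weeks old when the diets began, and had eaten high-fat sucrose food (HFS) or normal chow (NC) without restriction for 12 weeks since weaning. HC zt3 stands for home cage, 3 h after lights on. The series also holds mice with HFS given for restricted hours (HFS TRF) and mice taken 1 h or 12 h after object recognition memory training (ORM+1h, ORM+12h) or from the home cage 15 h after lights on (HC zt15). The genes were those with at least 10 counts in total, 30141 of the 57010 in the count table. In the 12 mice themselves, 25284 genes reached 10 counts. Both groups came from the same experiment. The mice were housed 6 per cage and the labels name no cage, so diet and cage cannot be told apart.

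Phosphorylated ribosomal protein S6 marks ribosomes of cells in which mTOR complex and MAP kinase signalling is active, and in the brain its level follows neuronal activity and nutrient state. An antibody to the phosphorylated protein pulls down these ribosomes with the mRNA they carry (pS6-TRAP), so the sequenced RNA is weighted towards active cells of all hippocampal types and is not a measure of total mRNA. More cells of a type and more captured RNA per cell cannot be told apart in such samples. Obesogenic feeding is known to alter hippocampal insulin signalling, lipid synthesis, glial state and the daily rhythm of gene expression. Each of these was described through lists of genes.

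No gene differed between the diets at HC zt3 past an adjusted p of 0.05, and most well-measured genes differed by little. With edgeR's quasi-likelihood test the smallest adjusted p was 0.588, so 0% of the 30141 genes were called. DESeq2 also called 0 genes, with 1694 at an unadjusted p under 0.05. With edgeR, 2527 genes (8.38%) had an unadjusted p under 0.05, of which 1401 (4.65% of all genes) were higher and 1126 (3.74%) lower in HFS ad lib mice. Among the 14859 genes with a mean of at least 50 normalized counts, the median log2 fold change (HFS ad lib over NC ad lib) was 0.01 and the median 95% confidence interval reached 0.21 to either side. That interval lay wholly within a 1.5-fold difference in either direction for 11967 genes (80.5%) and within a 2-fold difference for 14191 (95.5%). The estimate itself was beyond 1.5-fold for 153 of these genes and beyond 2-fold for 11. In 71 genes (0.236%) every HFS ad lib mouse was above every NC ad lib mouse, and in 169 (0.561%) every HFS ad lib mouse was below. All log2 fold changes that follow are from the same edgeR fit, and counts of genes at p under 0.05 use its unadjusted p. No gene described at HC zt3 passed the adjusted threshold (lowest edgeR adjusted p = 0.588). Beside single genes the p of an exact two-sided permutation test over the 12 mice (mean log2 CPM, 75 genes tested, not adjusted) is given, for which 0.00216 is the smallest value the design allows. Many of these genes were chosen by their edgeR p from the same mice and others after their values were seen. The permutation p is therefore a description of their spread and not independent evidence.

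**Figure D1:**
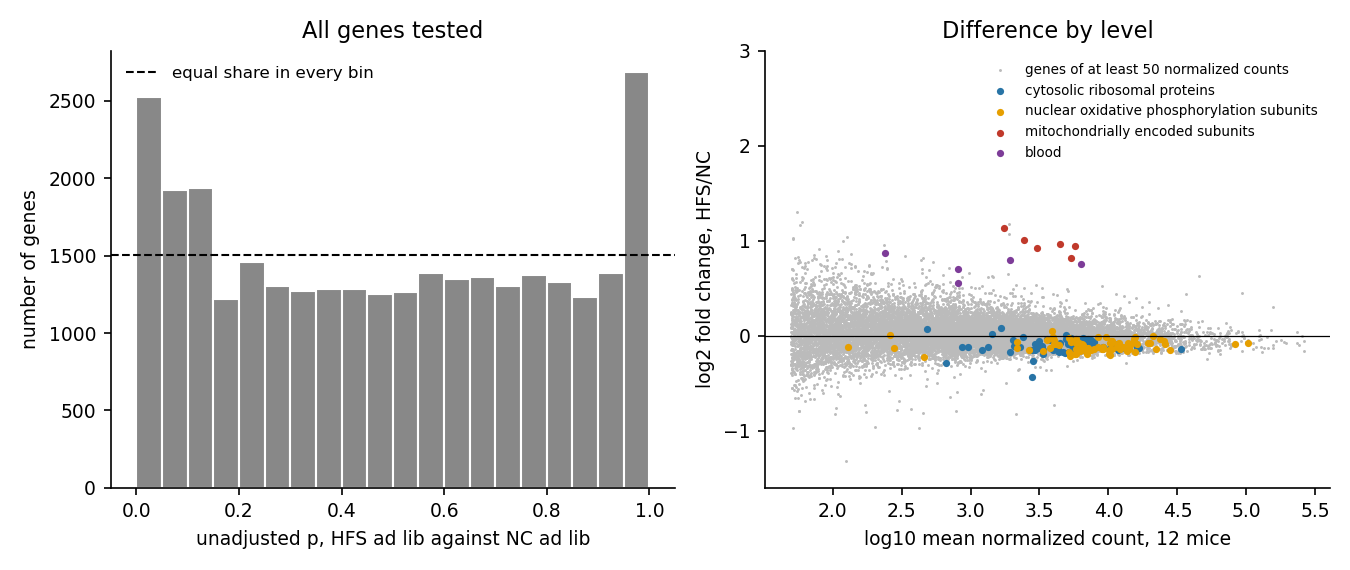
On the left, the number of the 30141 genes tested is plotted by unadjusted p of HFS ad lib against NC ad lib at HC zt3, with a dashed line at an equal share in every bin. On the right, the log2 fold change is plotted against the log10 mean normalized count for the 14859 genes of at least 50 normalized counts, with colours for 4 gene lists, and the mitochondrially encoded and blood genes stand above the cloud while ribosomal protein and respiratory subunit genes lie mostly under 0.

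The 12 libraries were of like depth, with total counts of 48891465 to 57592415 in NC ad lib and 51153793 to 56871555 in HFS ad lib mice. The first principal component held 36.8% of the variance and interleaved the diets, from -17.87 to 27.32 in NC ad lib and from -31.62 to 34.81 in HFS ad lib mice. The second (17.7%) set apart HFS ad lib mice 5 and 6, at 33.18 and 28.61, from the other 10 mice, at -11.84 to 5.31. NC ad lib mice 5 and 6 were the highest of their group on it, at 0.49 and 5.31, with the others at -9.27 to -3.28. Whether the mice numbered 5 and 6 shared a handling step was not tested. Results that rest on HFS ad lib mice 5 and 6 are given with and without them. Summed neuronal markers were 14037 to 16134 CPM (counts scaled to the library size) in NC ad lib and 14156 to 15964 in HFS ad lib mice. Markers of the hippocampal fields were present in every library, with sums of 698 to 1034 CPM in NC ad lib and 574 to 907 CPM in HFS ad lib mice for CA1 and of 202 to 253 CPM and 177 to 288 CPM for the dentate gyrus. Choroid plexus markers, from tissue that lies against the hippocampus, ranged from 320 to 4183 CPM in NC ad lib and from 182 to 8911 CPM in HFS ad lib mice, with 13 of 13 log2 fold changes positive, a median of 0.50 (-0.11 to 0.81 without each mouse in turn) and 0 at p under 0.05. Thalamus and habenula markers, from neighbouring brain, ranged from 82.3 to 362 CPM in NC ad lib and from 89.7 to 226 CPM in HFS ad lib mice. All 7 had negative log2 fold changes, with a median of -0.69 (-0.95 to -0.29 without each mouse in turn, -0.44 without HFS ad lib mice 5 and 6) and 0 at p under 0.05. The count lower was 3 without HFS ad lib mouse 1, 2 without NC ad lib mouse 1 or 4, and 1 without NC ad lib mouse 3 or HFS ad lib mouse 2. The part of neighbouring tissue in the results was not tested.

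Of the 3 higher genes with the smallest p, Trip11, which encodes a Golgi-associated microtubule-binding protein, had the smallest of all. Its level was 12.2, 13.5 and 14.7 CPM (lowest, median and highest) in NC ad lib mice and 15.7, 17.2 and 19.6 CPM in HFS ad lib mice. The groups did not overlap, and the log2 fold change was 0.36 ± 0.083 (SE; 95% interval 0.20 to 0.53, exact permutation p = 0.00216). Trip11 lies on chromosome 12 at 101800267-101879526 in GRCm39. Yipf6, which encodes a membrane protein of the Golgi, had 24.3, 27.3 and 29.98 CPM in NC ad lib and 30.4, 33.4 and 40.6 CPM in HFS ad lib mice. Here too all HFS ad lib mice were above all NC ad lib mice (log2 fold change 0.33 ± 0.084, interval 0.17 to 0.50, exact permutation p = 0.00216). Among the 36 chow and HFS ad lib mice of the other conditions, none of which enters the comparison at HC zt3, the diet difference was 0.05 for Trip11 (edgeR adjusted p = 0.691) and 0.09 for Yipf6 (edgeR adjusted p = 0.31).

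Of the 3 lower genes with the smallest p, Ogfr encodes the opioid growth factor receptor. Its level was 42.1, 46.2 and 55.6 CPM in NC ad lib and 36.6, 40.1 and 43.5 CPM in HFS ad lib mice, which overlap, with a log2 fold change of -0.24 ± 0.059 (interval -0.36 to -0.12, exact permutation p = 0.00433). Fscn1, which encodes the actin-bundling protein fascin, was measured at 266, 276 and 297 CPM in NC ad lib and 197, 234 and 243 CPM in HFS ad lib mice. No HFS ad lib mouse reached an NC ad lib mouse for Fscn1 (log2 fold change -0.29 ± 0.075, interval -0.44 to -0.14, exact permutation p = 0.00216). Rps4l, an Rps4-like ribosomal protein gene whose reads may be split with its paralog, had 53.4, 60.6 and 64.4 CPM in NC ad lib and 36.5, 43.2 and 52.5 CPM in HFS ad lib mice. These groups were also separate (log2 fold change -0.44 ± 0.112, interval -0.66 to -0.21, exact permutation p = 0.00216). In the 36 other mice Fscn1 fell by 0.16 on the log2 scale under HFS (edgeR adjusted p = 0.036), whereas Ogfr, at -0.115 (edgeR adjusted p = 0.0522), and Rps4l, at -0.13 (edgeR adjusted p = 0.307), did not pass.

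**Figure D2:**
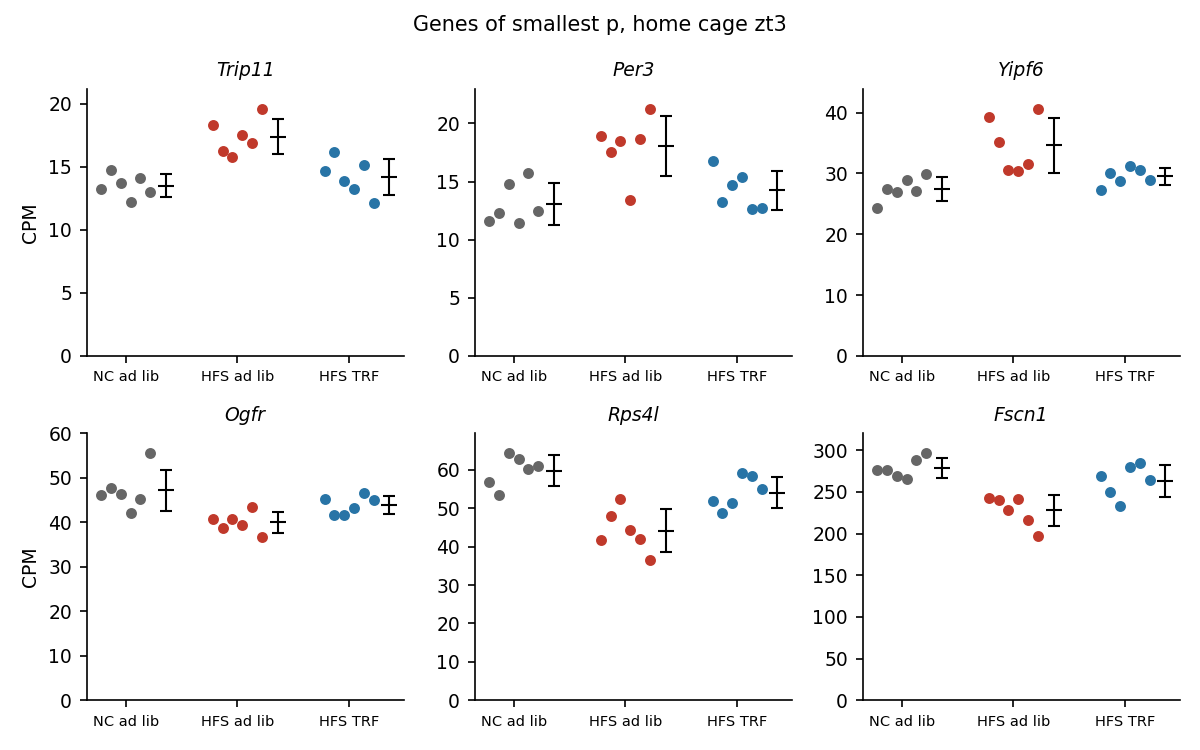
Points are single mice, with CPM on the vertical axis and the diet groups at HC zt3 side by side (HFS TRF last) for the 6 genes of smallest unadjusted p, and bars mark group means ± SD. For Trip11, Yipf6, Rps4l and Fscn1 the NC ad lib and HFS ad lib points do not overlap, whereas for Per3 and Ogfr they do.

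Per3 was the remaining gene of the 3 higher ones. It encodes a period protein of the circadian clock, a loop in which CLOCK and BMAL1 drive Per and Cry genes through E-boxes, PER and CRY proteins repress that drive, and REV-ERB and DBP family factors add further arms through their own sites. Its level was 11.4, 12.4 and 15.8 CPM in NC ad lib and 13.4, 18.6 and 21.3 CPM in HFS ad lib mice. The groups overlapped at their edges, and the log2 fold change was 0.47 ± 0.114 (interval 0.24 to 0.69, exact permutation p = 0.00649). The diet difference was 0.31 at ORM+1h, in mice of the same experiment (edgeR adjusted p = 0.496), and -0.00 at HC zt15 (edgeR adjusted p = 1). The test of the difference between the effects at HC zt15 and HC zt3 did not pass (edgeR adjusted p = 0.404). Per3 lies on chromosome 4 at 151081373-151129140, on the minus strand.

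The promoters of Per3 and Per2 are shown because they were the only ones among the 19 clock genes listed with an exact D-box, the element bound by DBP, TEF, HLF and NFIL3. The 250 bases before the start of the canonical transcript (GRCm39, minus strand, 5′ to 3′) are given with each D-box, TTATGTAA on either strand, in capitals. Other annotated transcripts of Per2 begin within its window. Per3 holds 2 and Per2 holds 1, while 182 of 21751 promoters of this length (0.837%) hold any.
Per3, chr4:151129141-151129390: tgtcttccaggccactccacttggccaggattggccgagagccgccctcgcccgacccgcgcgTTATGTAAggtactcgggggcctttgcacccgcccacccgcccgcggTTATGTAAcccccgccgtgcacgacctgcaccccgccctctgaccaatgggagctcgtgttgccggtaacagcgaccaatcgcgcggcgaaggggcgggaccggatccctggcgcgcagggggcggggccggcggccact
Per2, chr1:91387047-91387296: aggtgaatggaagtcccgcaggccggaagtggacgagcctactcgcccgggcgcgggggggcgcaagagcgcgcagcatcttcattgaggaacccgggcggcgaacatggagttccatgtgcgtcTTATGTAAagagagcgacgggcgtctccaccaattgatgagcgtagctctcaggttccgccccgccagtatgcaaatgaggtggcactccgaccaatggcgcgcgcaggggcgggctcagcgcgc
Per2 had 22.3, 24.7 and 28.7 CPM in NC ad lib and 27.7, 27.9 and 30.8 CPM in HFS ad lib mice (log2 fold change 0.17, edgeR unadjusted p = 0.235, exact permutation p = 0.0238). Per2 was chosen after its values were seen and was not among the clock genes at p under 0.05. The E-box CACGTG was found in the promoters of 5 of the 19 clock genes (Per1, Cry1, Tef, Bhlhe40 and Ciart) and in 6.26% of all promoters. The core AGGTCA of ROR and REV-ERB sites was found in those of Nr1d2 and Dbp and in 13.1% of all.

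Over the 19 clock genes, 3 (15.8%) were higher and 2 (10.5%) lower at p under 0.05, against 4.65% and 3.74% of all genes. The median log2 fold change was 0.01. Clock, the partner of BMAL1, had 48.7, 56.5 and 61.3 CPM in NC ad lib and 55.6, 63.9 and 74.0 CPM in HFS ad lib mice (log2 fold change 0.21, exact permutation p = 0.0433). Nr1d2, which encodes REV-ERB beta, was the third higher gene, at 42.5, 48.8 and 63.9 against 53.4, 58.4 and 70.3 CPM (0.20, exact permutation p = 0.0909). The lower genes were the repressors Cry2, at 187, 191 and 208 against 162, 178 and 197 CPM (-0.13, exact permutation p = 0.0152), and Bhlhe40, at 132, 161 and 176 against 121, 140 and 157 CPM (-0.17, exact permutation p = 0.0649). Cry2 and Bhlhe40 were chosen after their values were seen. The diets overlapped for each of these genes. The count of 3 became 1 without NC ad lib mouse 1 or 2 or HFS ad lib mouse 1 and with an offset for exon length, and the count of 2 became 0 or 1 without 8 of the 12 mice in turn. In the 36 other mice 1 clock gene was higher and 4 were lower at p under 0.05 (8.11% and 8.7% of all genes), with a median of -0.06.

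Of the gene lists, the largest median difference was that of transcripts made from the mitochondrial genome, which encodes 13 subunits of the respiratory chain and 2 ribosomal RNAs. The mRNAs are translated by mitochondrial ribosomes, which do not contain S6. Of the 13 mRNAs, 10 (76.9%) were higher in HFS ad lib mice at p under 0.05 and 0 were lower, against 4.65% and 3.74% of all genes. The median log2 fold change was 0.97, from -0.12 for mt-Nd6 to 2.67 for mt-Nd3. The count was 8 to 10 and the median 0.89 to 1.11 without each mouse in turn, and 8 and 0.94 without HFS ad lib mice 5 and 6. Summed over the list, the level was 215 to 397 CPM (median 264) in NC ad lib and 395 to 751 CPM (median 543) in HFS ad lib mice.

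Among the members, mt-Co1, the core subunit of cytochrome c oxidase, had 54.1, 67.5 and 99.9 CPM in NC ad lib and 93.1, 126 and 241 CPM in HFS ad lib mice (log2 fold change 0.95, exact permutation p = 0.00649). The ranges overlapped only between the highest NC ad lib and the lowest HFS ad lib values. mt-Co3, another core subunit of that enzyme, was far less abundant, at 0.122, 0.365 and 0.617 against 0.660, 1.10 and 2.14 CPM, with no overlap (1.67, exact permutation p = 0.00216). The complex I genes mt-Nd2 and mt-Nd5 were chosen after their values were seen, because they too did not overlap. mt-Nd2 was at 14.7, 18.7 and 27.8 against 29.8, 43.9 and 57.9 CPM (1.13, exact permutation p = 0.00216). mt-Nd5 was at 23.9, 26.002 and 40.8 against 43.9, 59.6 and 83.9 CPM (1.01, exact permutation p = 0.00216). The small ribosomal RNA mt-Rnr1, also chosen after its values were seen, had 15.1, 18.9 and 33.8 against 25.3, 47.5 and 75.9 CPM, which overlap (1.17 ± 0.328, exact permutation p = 0.013).

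In the 36 other mice 9 of the 13 mRNAs were higher at p under 0.05 and 0 lower (8.11% and 8.7% of all genes), with a median of 0.64. Of these mt-Nd5 rose (log2 fold change 0.66, edgeR adjusted p = 0.0495), as did mt-Rnr1 (0.68, edgeR adjusted p = 0.0394), whereas mt-Co1 did not pass (0.56, edgeR adjusted p = 0.0529). The median was 1.16 at ORM+1h and 0.16 at HC zt15. For HFS TRF mice at HC zt3 the median was 0.57 against NC ad lib and -0.42 against HFS ad lib mice. Mitochondrial RNA was a small part of each library, 0.0340% ± 0.0090 (SD, n = 6) of counts in NC ad lib and 0.0672% ± 0.0208 (n = 6) in HFS ad lib mice. The nuclear genome holds near-identical copies of mitochondrial genes and only uniquely placed reads were counted, so the levels are uncertain.

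The blood markers had the same sign at HC zt3. The 5 genes listed encode the globin chains of haemoglobin and Alas2, the first enzyme of haem synthesis in red cells. All 5 were higher in HFS ad lib mice and 4 (80%) had a p under 0.05, where 4.65% of all genes were higher. The median log2 fold change was 0.76. Their summed level was 119 to 177 CPM (median 139) in NC ad lib and 123.2 to 344 CPM (median 243) in HFS ad lib mice, which overlap. Hbb-bs had 74.0, 87.8 and 108 CPM in NC ad lib and 86.7, 154 and 218 CPM in HFS ad lib mice (log2 fold change 0.76, exact permutation p = 0.0152). Alas2 was at 2.72, 3.24 and 3.57 against 3.07, 6.29 and 8.07 CPM (0.87, exact permutation p = 0.00866). Both genes were chosen after their values were seen. In the 36 other mice the median was -0.04. All 5 differed between HC zt15 and HC zt3 in their diet effect at p under 0.05, as did 9.38% of all genes. The part of blood in the mitochondrial difference was not tested.

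**Figure D3:**
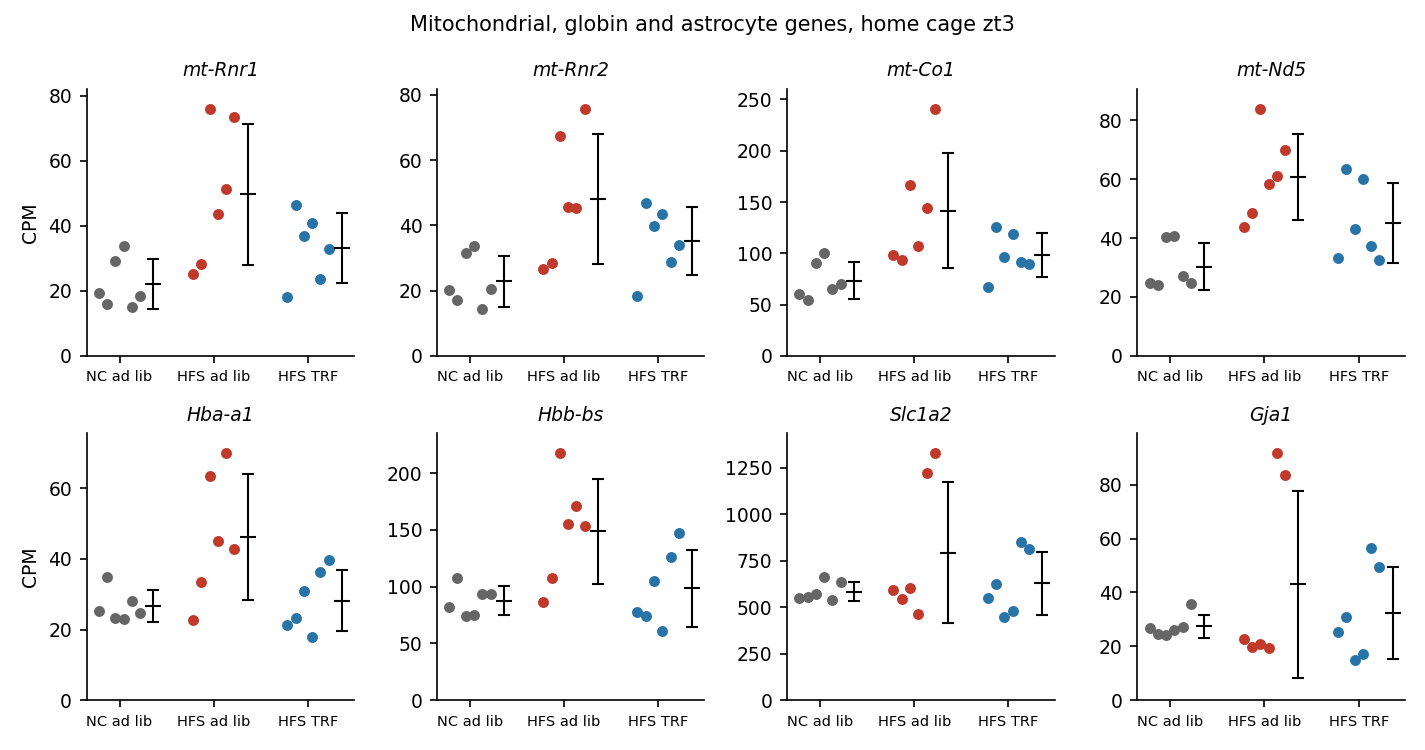
Points are single mice at HC zt3 and the vertical axes give CPM for mitochondrially encoded, globin and astrocyte genes by diet group (NC ad lib, then HFS ad lib, then HFS TRF), with bars for the mean ± SD. The mt-Nd5 points of HFS ad lib mice lie above all those of NC ad lib mice, and for Slc1a2 and Gja1 2 HFS ad lib mice lie far above the other 4.

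The nuclear genes of the same respiratory complexes had the opposite sign. Of 84 nuclear subunits of oxidative phosphorylation, 82 had a negative log2 fold change, 15 (17.9%) were lower at p under 0.05, 0 were higher, and the median was -0.12. Of all genes 3.74% were lower and 4.65% higher. Their values spanned -0.82 to 0.05, and 6 of the genes were lower in all HFS ad lib mice than in any NC ad lib mouse, as were 0.561% of all genes. Ndufa10, a complex I subunit, had 257, 274 and 283 CPM in NC ad lib and 228, 243 and 259 CPM in HFS ad lib mice, which overlap slightly (-0.16, exact permutation p = 0.00433). Atp5po, a stalk subunit of ATP synthase listed here as ENSMUSG00000022956 since another identifier overlaps it, was at 192, 204 and 224 against 158, 181 and 189 CPM, with no overlap (-0.20, exact permutation p = 0.00216). The count of 15 depended on single mice. It was 5, 7, 8 and 9 without HFS ad lib mouse 1, NC ad lib mouse 6, NC ad lib mouse 5 and HFS ad lib mouse 6, and 26 without HFS ad lib mouse 4. Across the 36 other mice 12 of the 84 were higher and 14 lower at p under 0.05 (8.11% and 8.7% of all genes) and the median was 0.02. At HC zt3 the median of HFS TRF against NC ad lib mice was 0.01.

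The cytosolic ribosomal proteins behaved alike. Of 82 genes, 78 had a negative log2 fold change, 18 (21.95%) were lower at p under 0.05 (3.74% of all genes), 0 were higher (4.65%), and the median was -0.12. Rps10, a small-subunit protein, had 12.9, 13.4 and 14.6 CPM in NC ad lib and 10.3, 10.9 and 13.0 CPM in HFS ad lib mice (log2 fold change -0.29, exact permutation p = 0.00649), overlapping through HFS ad lib mouse 4. Rps6, chosen after its values were seen because its protein is the target of the antibody, was at 93.8, 95.9 and 100 against 77.4, 85.4 and 90.8 CPM with no overlap (-0.18, exact permutation p = 0.00216). The count of 18 was 5 without HFS ad lib mouse 1, 11 without NC ad lib mouse 6 or HFS ad lib mouse 2, 36 without HFS ad lib mouse 5, and 35 without HFS ad lib mice 5 and 6. Outside HC zt3, in the 36 other mice, the median was 0.02, with 6 higher and 3 lower at p under 0.05 (8.11% and 8.7% of all genes). The proteasome base subunits Psmc5 and Psmc3, chosen after their values were seen, unfold proteins before they are degraded. Psmc5 had 193, 214 and 222 CPM in NC ad lib and 174, 185 and 199 CPM in HFS ad lib mice (log2 fold change -0.19, exact permutation p = 0.00433). Psmc3 had 272, 281 and 304 against 230, 240 and 267 CPM, with no overlap (-0.20, exact permutation p = 0.00216), and it fell in the 36 other mice (-0.14, edgeR adjusted p = 0.0297).

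Exon length moved with these results, and its part in them was examined with an offset for length. Ribosomal protein and respiratory subunit mRNAs are short. Over 5 classes of exon length from shortest to longest (793, 911, 2549, 5689 and 4872 genes of at least 50 normalized counts), the median log2 fold change at HC zt3 was -0.10, -0.07, -0.03, 0.01 and 0.06. In the shortest class 5.80% of genes were lower and 1.01% higher at p under 0.05, and in the longest 1.81% were lower and 9.77% higher. Over all 14859 such genes 1383 (9.31%) had a p under 0.05, with 793 (5.34%) higher and 590 (3.97%) lower. Over the mice of the other conditions the medians of the classes lay between -0.02 and 0.00. The longest minus the shortest class was -0.12 to -0.03 (log2) in the NC ad lib mice, and -0.04, -0.01, 0.09, 0.10, 0.11 and 0.27 in the HFS ad lib mice, of which mouse 1 was the highest. With an offset for exon length in the model, the median of the nuclear respiratory subunits was -0.09 with 13 lower at p under 0.05, and that of the ribosomal proteins was -0.09 with 16 lower. The offset does not use the length of the mRNA, whose part was not tested. The mitochondrial mRNAs, with a median exon length of 784 bases, kept a median of 1.03 and 10 higher. Trip11, Per3 and Yipf6 are in the longest class, and with the offset their log2 fold changes were 0.32, 0.42 and 0.30. Those of Ogfr, Rps4l and Fscn1 were -0.24, -0.39 and -0.26. Clock went from 0.21 to 0.12, Igf1r from 0.25 to 0.15 and Grin2a from 0.28 to 0.18.

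**Figure D4:**
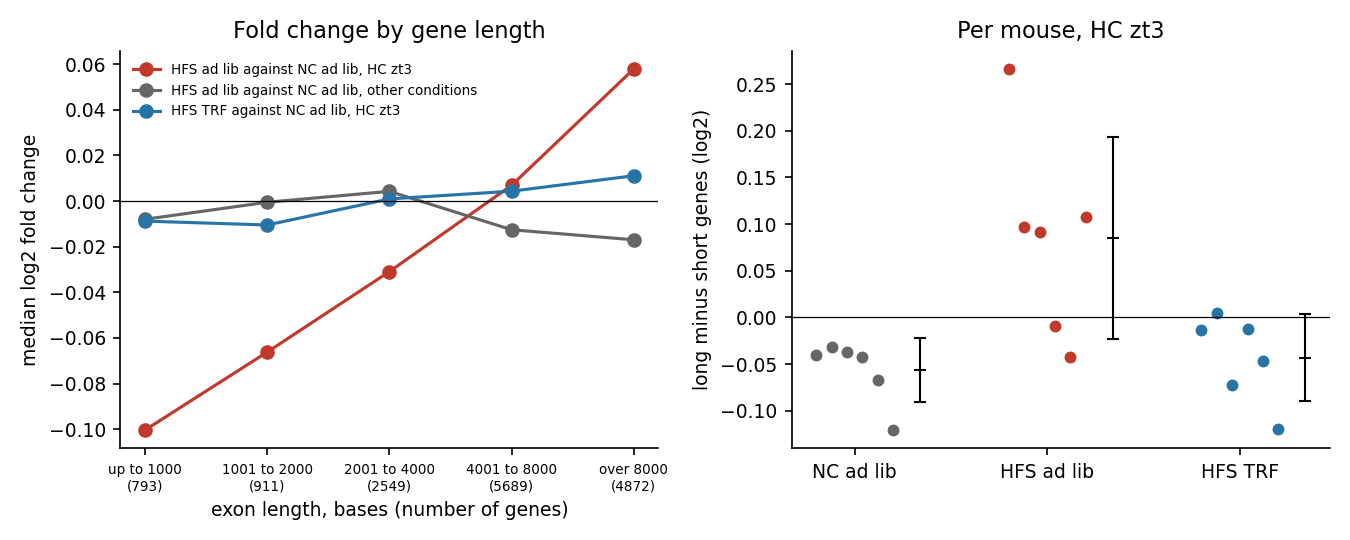
On the left, the median log2 fold change is plotted by class of exon length (bases) for HFS ad lib against NC ad lib at HC zt3, for the same diets in the other conditions and for HFS TRF against NC ad lib at HC zt3. On the right, the longest minus the shortest class (log2) is shown for each mouse with the mean ± SD, and the HC zt3 medians go from -0.10 to 0.06 while those of the 36 other mice stay between -0.02 and 0.00.

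Genes of astrocytes, which clear glutamate from the synapse and return it to neurons as glutamine, separated HFS ad lib mice from each other rather than from chow-fed mice. All 13 genes of astrocyte glutamate handling had a positive log2 fold change with a median of 0.34, but 1 (7.69%) had an edgeR p under 0.05 (4.65% of all genes were higher). That gene was Slc1a2, the main glutamate transporter GLT-1, at 537, 561 and 659 CPM in NC ad lib and 463, 598 and 1330 CPM in HFS ad lib mice (log2 fold change 0.44, exact permutation p = 0.366). HFS ad lib mice 5 and 6 had 1220 and 1330 CPM, while the other 4 were at 463 to 602 CPM. The glutamate transporter Slc1a3 (GLAST) showed the same split, with 397 and 388 CPM in mice 5 and 6 and 92.2 to 111 CPM in the other 4, against 119 to 178 CPM in NC ad lib mice. Gja1, the gap junction protein connexin 43, chosen after its values were seen, had 91.8 and 83.8 CPM in these mice, 19.5 to 22.9 CPM in the other 4 and 24.1 to 35.9 CPM in NC ad lib mice.

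Without HFS ad lib mice 5 and 6 the median of the 13 genes was -0.25, with 2 lower at p under 0.05 and the log2 fold change of Slc1a2 at -0.08. The summed astrocyte markers were 1330 to 1861 CPM in NC ad lib mice and 1092, 1271 and 3686 CPM (lowest, median and highest) in HFS ad lib mice. Of these 10 markers 3 (30%) were higher at p under 0.05 (4.65% of all genes) with a median of 0.45. Without mice 5 and 6 0 were higher, 2 were lower and the median was -0.41. Leaving out a single mouse gave 0 (HFS ad lib mouse 5 or 6), 1 (NC ad lib mouse 1, 2, 3 or 5), and 5 to 7 (HFS ad lib mouse 1, 2, 3 or 4). HFS TRF mice 5 and 6 were likewise the highest of their group, with Slc1a2 at 852 and 810 CPM and Gja1 at 56.4 and 49.6 CPM. Across the 36 other mice the median of the 13 genes was -0.22 with 0 higher and 2 lower at p under 0.05 (8.11% and 8.7% of all genes). The diet effect at ORM+1h differed from that at HC zt3 at p under 0.05 for 9 of the 13 genes (6.25% of all genes), and none passed the edgeR adjusted threshold. That test includes HFS ad lib mice 5 and 6 and was not run without both of them.

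Immediate early genes, which are induced within minutes of neuronal activity, had 0 of 20 members at p under 0.05 in either direction, and the median log2 fold change was 0.06. The count higher was 2 without HFS ad lib mouse 1, 2 or 4 and 1 without NC ad lib mouse 6. Arc, which encodes a capsid-like regulator of AMPA receptors, had 125, 141 and 176 CPM in NC ad lib and 119, 149 and 303 CPM in HFS ad lib mice (log2 fold change 0.35, 95% interval -0.04 to 0.74, exact permutation p = 0.366). Btg2, an anti-proliferative regulator, was at 8.28, 12.7 and 17.8 against 10.8, 13.8 and 24.7 CPM (0.34, exact permutation p = 0.26), and Fos had a log2 fold change of 0.07 (exact permutation p = 0.812). Mice 5 and 6 of the HFS ad lib group again held the high values, with Arc at 303 and 262 CPM and Fos at 25.1 and 29.4 CPM. Without them the median of the list was -0.11, with 2 genes lower at p under 0.05, and Fos was at -0.75 (edgeR adjusted p = 0.762).

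Thyroid hormone acts through the nuclear receptors Thra and Thrb after transporters carry it into cells and the deiodinase Dio2 activates it, while Dio3 inactivates it. Of 18 genes of this system 3 (16.7%) were higher and 1 (5.56%) lower at p under 0.05, against 4.65% and 3.74% of all genes. The median log2 fold change was 0.04. Slc16a10, a transporter of thyroid hormone and aromatic amino acids, had 0.987, 1.42 and 1.87 CPM in NC ad lib and 1.39, 2.08 and 3.66 CPM in HFS ad lib mice (log2 fold change 0.61, exact permutation p = 0.0455). Med12, a subunit of the Mediator complex, was at 5.29, 7.21 and 7.84 against 7.18, 8.68 and 10.2 CPM (0.30, exact permutation p = 0.0195), with the opposite sign at ORM+1h (-0.31, edgeR adjusted p = 0.496). Thrb was at 31.7, 35.03 and 43.2 against 35.5, 40.5 and 50.2 CPM (0.19, exact permutation p = 0.0996). All 3 overlapped between the diets, and the count of 3 was 1 without NC ad lib mouse 3 or HFS ad lib mouse 3. Dio2 had a log2 fold change of 0.36 (95% interval -0.12 to 0.84, exact permutation p = 0.535) and -0.30 without HFS ad lib mice 5 and 6, which had 30.7 and 32.2 CPM. Dio3 was at -0.32 (interval -1.07 to 0.42, exact permutation p = 0.416), Slco1c1 at 0.66 (exact permutation p = 0.407) and Thra at -0.05 (exact permutation p = 0.53). The value of Slco1c1 was 0.37 to 0.88 without each mouse in turn, and it stood beside the positive choroid plexus markers, whose part in it was not tested. Over the 24 genes of thyroid, glutamate, clock and activity function that the study itself names, 4 had a p under 0.05 at HC zt3, all of them higher (Per3, Slc1a2, Thrb and Nr1d2). Of all genes 4.65% were higher. The median was 0.28 and the values ran from -0.32 to 0.66. Without HFS ad lib mice 5 and 6, Per3 (0.39) and Thrb (0.26) kept a p under 0.05. Slc1a2 was then at -0.08 and Nr1d2 at 0.13 (edgeR unadjusted p = 0.684 and 0.219). Many of the other genes named, among them Dio2, Slc1a3, Glul and Fos, turned negative, and the median without these mice was not computed.

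Insulin, leptin and mTOR signalling genes, whose products relay nutrient state to the kinases that phosphorylate S6, had 6 of 25 members (24.0%) higher at p under 0.05 and 0 lower, with a median log2 fold change of 0.09. Over all genes 4.65% were higher and 3.74% lower. The summed level, which the abundant members dominate, was 1639 to 1701 CPM in NC ad lib and 1712 to 1833 CPM in HFS ad lib mice, without overlap. The mean log2 CPM of the list, in which each gene has equal weight, did overlap. It was 4.99 to 5.34 in NC ad lib and 4.99 to 5.51 in HFS ad lib mice. Igf1r, the receptor of insulin-like growth factor 1, was at 35.8, 45.4 and 51.4 against 48.1, 53.0 and 58.8 CPM (0.25, exact permutation p = 0.013), and at 0.18 in the 36 other mice (edgeR adjusted p = 0.0636). Chosen after their values were seen, the PI3 kinase subunit Pik3ca (0.21, exact permutation p = 0.0152) and the insulin receptor substrate Irs1 (0.18, exact permutation p = 0.132) also had positive log2 fold changes. The count of 6 was 3 without NC ad lib mouse 1 or 6, without HFS ad lib mice 5 and 6, and with the offset for exon length. With that offset the list median was 0.03. Outside HC zt3, in the 36 other mice, 4 were higher and 4 lower at p under 0.05 (8.11% and 8.7% of all genes) with a median of -0.02.

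Of 20 glutamate receptor and postsynaptic density genes 1 (5.00%) was higher at p under 0.05, near the 4.65% of all genes, with a list median of 0.04. It was Grin2a, an NMDA receptor subunit, at 168, 186 and 266 CPM in NC ad lib and 190, 241 and 307 CPM in HFS ad lib mice (log2 fold change 0.28, exact permutation p = 0.0758). That count was 4 with a median of 0.11 without HFS ad lib mice 5 and 6, 4 without HFS ad lib mouse 5, 2 without HFS ad lib mouse 4 or NC ad lib mouse 3 or 4, and 0 without HFS ad lib mouse 1 or NC ad lib mouse 1 or 6. With the offset for exon length 0 were higher and 1 lower. Of 17 GABA genes 2 (11.8%) were higher at p under 0.05 (4.65% of all genes) with a median of 0.07. Gabrb1, a GABA-A receptor subunit, was at 74.9, 87.7 and 95.8 against 90.6, 96.2 and 120 CPM (0.24, exact permutation p = 0.013), and Gabra2, another, at 35.5, 45.0 and 52.5 against 42.1, 51.7 and 88.1 CPM (0.37, exact permutation p = 0.0866). The GABA count was 1 without HFS ad lib mouse 3, 4 without NC ad lib mouse 4, 5 without HFS ad lib mouse 5 and 6 without HFS ad lib mice 5 and 6.

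Neuropeptide genes, made by interneurons and granule cells, had 11 of 14 values below 0 with a median log2 fold change of -0.15. At p under 0.05, 2 (14.3%) were lower, against 3.74% of all genes. Npy, an interneuron peptide that dampens excitation, had 35.2, 45.5 and 57.3 CPM in NC ad lib and 23.1, 39.3 and 40.8 CPM in HFS ad lib mice (log2 fold change -0.36, exact permutation p = 0.0909). Cort, the somatostatin-related peptide cortistatin, was at 5.67, 6.35 and 8.88 against 2.22, 5.48 and 6.12 CPM (-0.45, exact permutation p = 0.0216). HFS ad lib mouse 3 was the lowest for both, and without it 0 members had a p under 0.05, as without NC ad lib mouse 2 or 4. Without HFS ad lib mouse 2 there were 4. Over the mice of the other conditions the list had the opposite sign, with a median of 0.20 and 5 higher at p under 0.05 (8.11% of all genes). The diet effect differed from that at HC zt3 at p under 0.05 for 5 of the 14 genes at ORM+1h (6.25% of all genes). At HC zt15 it differed for 6 (9.38%), and none passed the edgeR adjusted threshold in either test. For Npy the diet effect was 0.49 at HC zt15, and the test of its difference from that at HC zt3 did not pass (edgeR adjusted p = 0.404).

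Lipid genes also differed little. Of 26 genes of cholesterol and fatty acid synthesis 0 were higher and 2 (7.69%) lower at p under 0.05 (4.65% and 3.74% of all genes). The median log2 fold change was 0.01. Fdps, which makes farnesyl diphosphate, had 47.3, 51.3 and 54.7 CPM in NC ad lib and 41.4, 43.6 and 46.4 CPM in HFS ad lib mice, with no overlap (-0.22, exact permutation p = 0.00216). Fdft1, squalene synthase, was at 69.7, 79.6 and 92.2 against 66.4, 71.7 and 80.3 CPM (-0.15, exact permutation p = 0.0606). The count of 2 was 1 without NC ad lib mouse 1, 2 or 5 or HFS ad lib mouse 1, 4 or 6. Across the 36 other mice 8 of the 26 genes fell, where 1.09% of all genes were called lower. Among these were Fdps (-0.21, edgeR adjusted p = 0.0178) and Fdft1 (-0.22, edgeR adjusted p = 0.00422). Fatty acid oxidation, ketone use and lipid storage (24 genes) had 0 at p under 0.05 in either direction and a median of 0.06, with the smallest edgeR p for the ketone enzyme Bdh1 (-0.14, exact permutation p = 0.0303) and the coactivator Ppargc1a (0.13, exact permutation p = 0.0649).

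Of 22 genes of inflammation and glial reactivity 3 (13.6%) were higher at p under 0.05 (4.65% of all genes) with a median of 0.34. Without HFS ad lib mice 5 and 6 the median was -0.05 and 1 was higher, and 1 was higher without HFS ad lib mouse 5 or NC ad lib mouse 3 or 6 and 0 without NC ad lib mouse 1. The interferon-induced Ifit1 had 0.161, 0.319 and 0.509 CPM in NC ad lib and 0.365, 0.670 and 1.76 CPM in HFS ad lib mice (log2 fold change 1.24, exact permutation p = 0.026). The chemokine gene Cxcl10 was at 0.121, 0.188 and 0.569 against 0.204, 0.474 and 2.56 CPM (1.53, exact permutation p = 0.0887), with its highest value in HFS ad lib mouse 5. The 10 microglial markers all had a positive log2 fold change at HC zt3 with a median of 0.26 and 0 at p under 0.05. Outside HC zt3, in the 36 other mice, their median was 0.58 and 6 of 10 rose, where 0.939% of all genes were called higher. That median averages unlike conditions, with 0.40 at ORM+1h and 1.23 at HC zt15. For 7 of the 10 the diet effect at HC zt15 differed from that at HC zt3 at p under 0.05 (9.38% of all genes), and none passed the edgeR adjusted threshold.

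The 16 glucocorticoid-responsive genes had 0 at p under 0.05, a median of 0.05 and the smallest edgeR p for the receptor Nr3c1 (0.15, exact permutation p = 0.271) and the metallothionein Mt1 (0.34, exact permutation p = 0.66). The median of that list was -0.13 without HFS ad lib mice 5 and 6, with 1 higher and 1 lower at p under 0.05, and Mt1 was at -0.30. The count higher was 2 without HFS ad lib mouse 1 or 2 and 1 without HFS ad lib mouse 4 or NC ad lib mouse 4. Of 22 heat shock and unfolded protein response genes 1 (4.55%) was higher at p under 0.05 (4.65% of all genes), with a list median of 0.00. It was the chaperone gene Dnajb9 (0.26, exact permutation p = 0.0823). Hspa5, the chaperone BiP, varied more among HFS ad lib mice, at 221, 232 and 243 CPM in NC ad lib and 205, 300 and 394 CPM in HFS ad lib mice (log2 fold change 0.36, exact permutation p = 0.0974). Markers of myelinating oligodendrocytes were positive for 8 of 8, with 2 (25%) higher at p under 0.05 (4.65% of all genes) and a median of 0.21. The count was 0 and the median 0.16 without HFS ad lib mice 5 and 6, where Mobp was at 0.24, and the count was 1 with the offset for exon length and without NC ad lib mouse 1, 2, 3 or 6 or HFS ad lib mouse 5 or 6. Of these Mobp, a structural myelin protein, had 44.6, 46.5 and 64.1 CPM in NC ad lib and 55.4, 61.9 and 80.9 CPM in HFS ad lib mice (log2 fold change 0.36, exact permutation p = 0.0173). Mobp was chosen after its values were seen.

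**Figure D5:**
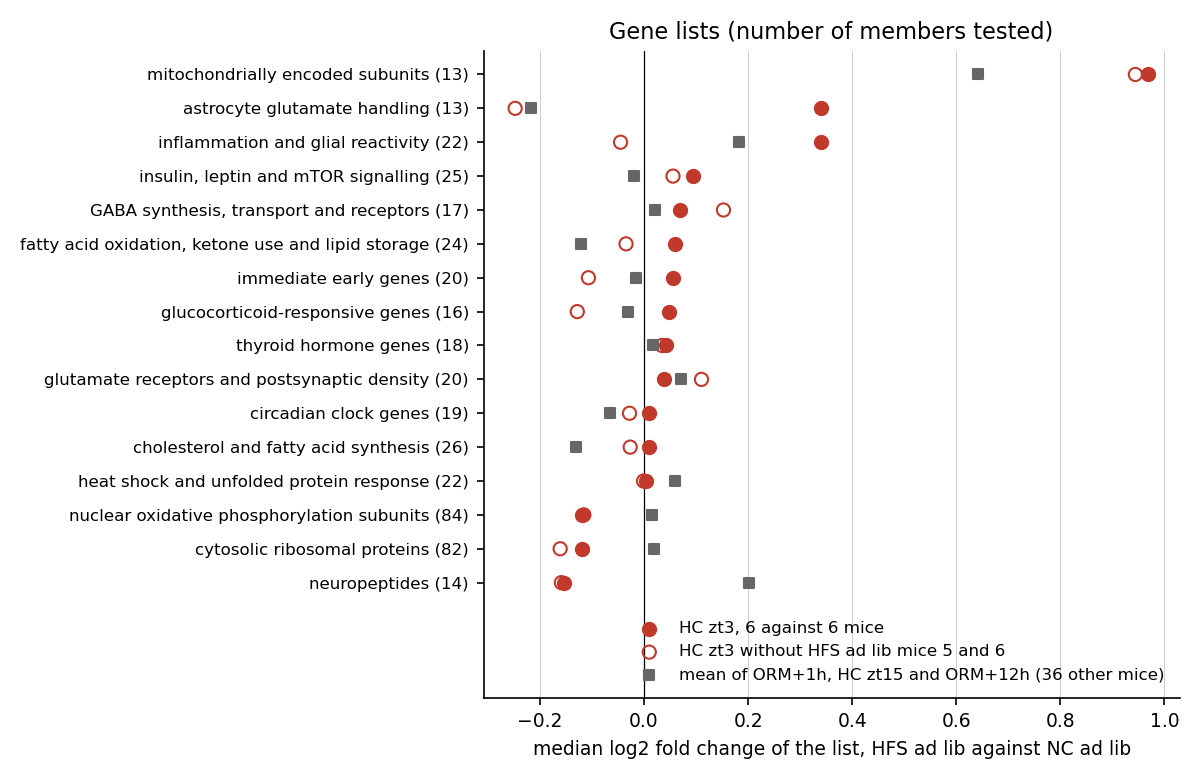
Each row is a gene list, with its median log2 fold change of HFS ad lib against NC ad lib on the horizontal axis at HC zt3 (filled circles), at HC zt3 without HFS ad lib mice 5 and 6 (open circles) and in the 36 other mice (squares). The mitochondrially encoded mRNAs reach 0.97, 0.94 and 0.64, the nuclear respiratory subunits and ribosomal proteins sit at -0.12 at HC zt3 and 0.02 in the other mice, and the astrocyte glutamate genes at 0.34, -0.25 and -0.22.

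The diet contrast averaged over the conditions other than HC zt3 called 612 genes (2.03%), 283 of them higher and 329 lower, in 36 mice that share no animal with the 12. At HC zt3 447 of the 612 (73.0%) had the same sign, against 51.3% of all genes and 55.6% of the 14859 genes of at least 50 normalized counts. The same sign with a p under 0.05 was found for 67 (10.9%), against 5.00% of all genes. A further 7 had a p under 0.05 with the opposite sign. The median log2 fold change at HC zt3 was 0.05 for the 283 higher genes and -0.09 for the 329 lower ones. The test of the difference in diet effect called 0 genes for HC zt15 against HC zt3 (edgeR, 2828 at p under 0.05) and 0 for ORM+1h against HC zt3 (edgeR, 1884 at p under 0.05). DESeq2 called 0 genes in either test.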

How the data were processed

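The deposited table held raw read counts per gene for each of 71 mice. To make it, the authors trimmed reads (Trim Galore 0.6.7, cutadapt 3.4), aligned them with HISAT2 2.2.0 and counted uniquely placed reads with featureCounts (Subread 2.0.3). The methods name GRCm39 and the labels also name mm9. The annotation release and strand setting are not given in the sources used here, so overlapping and antisense genes cannot be told apart. Names and exon lengths were taken from a GENCODE annotation of GRCm39 that matched 56310 of 57010 gene identifiers. Genes with at least 10 counts over the 71 mice were fitted with edgeR 4.0.16 (R 4.3.3, TMM normalization, quasi-likelihood test, Benjamini-Hochberg adjustment) in 1 model with a mean for each of 12 groups of diet and condition, as the study fitted all its samples together. Values per mouse are CPM. Single genes at HC zt3 were also given, as an addition made after seeing the data, an exact two-sided permutation test of mean log2 CPM over the 12 mice. The quasi-likelihood test was tested on simulated data for HFS ad lib against NC ad lib at HC zt3 with 200 of 30141 genes changed, and it called 56 of 100 genes at 1.5-fold, 73 of 100 at 2-fold and 9 unchanged genes. The 30 pairs of libraries within the 2 groups were checked and all differed by more than sampling noise. Each of the mice is 1 library, so p-values measure the spread between mice, and intervals assume this model. Alternatives were DESeq2 1.42.0, DESeq2 size factors, other filters, the 12 mice alone, a replicate block, a choroid plexus covariate, leaving out each mouse and, chosen after seeing the data, an exon length offset and leaving out HFS ad lib mice 5 and 6. Named genes were the 3 of smallest p in each direction with at least 50 normalized counts and a proper symbol, the 2 of smallest p in each list and the genes the study names, with others said to be chosen after their values were seen. Gjb6 was also chosen in that way. Some genes that the rule names are not reported here. The genes and lists were chosen with earlier results of these data known, and lists were given no test of their own.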

Additional observations from a re-analysis of the deposited data

Results flagged for a closer look

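In groups of 6 mice, 190 sets of values were searched for a mouse whose gap to its neighbour exceeded Dixon's 95% critical share of the range, and 12 were found, where chance gives about 1 in 20 groups. In NC ad lib mice at HC zt3, mouse 6 stood apart with the highest total count, 57592415, and the highest Gja1 (35.9 CPM) and Grin2c (13.9 CPM). NC ad lib mouse 2 was apart for Fosb (34.8 CPM) and Egr2 (3.76 CPM), mouse 3 for Med12 (5.29 CPM) and mouse 4 for the summed CA1 markers (1034 CPM). In HFS ad lib mice, mouse 3 was apart for the neuropeptides Npy (23.1 CPM) and Cort (2.22 CPM), mouse 4 for Rps10 (13.0 CPM) and Dio3 (6.15 CPM), and mouse 5 for Cxcl10 (2.56 CPM). HFS ad lib mice 5 and 6, which together had high astrocyte values, could not stand apart in this search for those genes, since each was near the other.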

How the results depend on the processing

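At HC zt3 the count of genes called stayed 0 without each mouse in turn (0 to 0) and in every other setting run except the replicate block fitted to the 12 mice alone, with 11 genes, among them 7 of the 13 mitochondrially encoded mRNAs and 1 cytosolic ribosomal protein gene. The replicate numbers were not taken to pair the mice, since same-numbered deviations correlated at -0.478 to 0.419 with 1 of 6 pairs over 0.1 and 1 of 6 HFS ad lib mice correlated best with its own number. That check compares mice of equal number only, so it cannot show a factor shared by numbers 5 and 6 against the rest. The replicate block in all 71 mice gave 1244 genes for the 36 other mice (612 without it), 87 at ORM+1h (0), 0 at HC zt15 (19) and 1 for HFS TRF against NC ad lib (0). DESeq2 gave 1118, 25 and 58 for the first 3 of these and 1 for HFS TRF against either group. The choroid plexus covariate gave 0 at HC zt15. Genes at an unadjusted p under 0.05 at HC zt3 numbered 1617 after filterByExpr, 1575 with protein-coding genes alone and 1815 to 2837 without each mouse, against 2527, fewer genes being tested under the first 2. Their split into higher and lower was 1401 and 1126, but 710 and 907 after filterByExpr and 1133 and 1231 with an exon length offset. Without HFS ad lib mice 5 and 6 log2 fold changes reversed to -0.029 for Btg2, -0.035 for Slc7a11, -0.083 for Slc1a2, -0.11 for Arc and Egr1, -0.13 for Gjb6, -0.24 for Gadd45b, -0.27 for Nr4a1, -0.30 for Mt1 and Dio2, -0.34 for Grin2c and Grm3, -0.40 for Gja1, -0.44 for Slc1a3, -0.45 for Glul, -0.64 for Slc25a18 and -0.75 for Fos. With the replicate block Fos was -0.095 in 71 and -0.082 in 12 mice and Gadd45b -0.023 in both. Egr1 was -0.0041 with DESeq2 or its size factors, -0.011 after filterByExpr and -7.4e-05 with protein-coding genes alone. Without each mouse in turn the sign also turned for Mt1 (-0.0097 to 0.47), Slc25a18 (-0.13 to 0.49), Glul (-0.018 to 0.38), Fos (-0.25 to 0.22), Fosb (-0.11 to 0.12), Egr1 (-0.043 to 0.059), Nr4a1 (-0.064 to 0.16), Gadd45b (-0.13 to 0.098). The cause was not tested. With 6 mice per group, a 1.5-fold difference was often missed in simulated data.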
